A study of Mus musculus with 6 samples.

Results

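The 7 genes described here, Ncoa1, Ncoa2, Ncoa3, Ep300, Crebbp, Med1 and Ncor1, encode coactivators and a corepressor of nuclear receptors. They were taken by name from 21883 protein-coding genes, at their RefSeq positions on GRCm38, the assembly behind mm10. Every called peak or region inside a gene or within 50 kb of its ends was counted, and the 7 windows do not overlap one another. The study mapped chromatin by CUT&Tag, in which an antibody guides a transposase to its target so that released fragments mark the bound place, in OG2X129 mouse embryonic fibroblasts put through chemical reprogramming. H3K27ac, a histone acetylation found at active promoters and enhancers, was profiled in 2 samples treated with CD and in 2 treated with DMSO, a solvent. Another 2 samples, overexpressing Flag-tagged Rxra, were profiled with a Flag antibody. The series title names CD3254, a synthetic agonist of retinoid X receptors. The labels do not spell out CD, the agent given with Flag-Rxra, the reprogramming day, or whether replicates were separate cultures.

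Nuclear receptors such as Rxra, the retinoid X receptor alpha, switch genes by exchanging coregulators. Without ligand many receptors hold Ncor1, a scaffold that brings histone deacetylases. Agonist binding exposes a groove that accepts leucine-rich motifs of the p160 coactivators Ncoa1, Ncoa2 and Ncoa3, which in turn recruit the acetyltransferases Ep300 and Crebbp. These paralogous enzymes place H3K27ac. Med1 is the Mediator subunit through which receptors contact RNA polymerase II. The lists were read for called peaks at the genes of these coregulators.

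Both replicates of an H3K27ac condition share 1 list, so H3K27ac values have no replicate error, whereas each Flag-Rxra replicate has its own list. The CD list held 104437 regions and the DMSO list 75482. For Flag-Rxra, 28243 peaks were listed in replicate 1 and 45999 in replicate 2. Values per peak are the authors' own: fold enrichment over the background of their peak caller, and −log10 q, the evidence for a peak. No list of a control antibody was used here. A called peak is therefore no measure of binding by itself. The lists hold no read counts, the depth is unknown, and no test was run. The cell type could not be read from H3K27ac at gene ends. Of 12 fibroblast markers, 5 had a region there in CD and 4 in DMSO, beside 38.3% and 35.8% of all protein-coding genes. Endothelial markers had 1 in CD and 3 in DMSO of 5, macrophage markers 3 and 1 of 5, and keratinocyte markers 2 and 1 of 5.

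RefSeq promoters, 250 bases before a gene's start and 50 bases from it on, were listed for Ncoa1, Ncor1, Ep300, Crebbp and Med1. The 4 printed here are those on which a Flag-Rxra peak of replicate 1 lay, at Ncor1, Med1 and Ep300, and that of Ncoa1, on which none lay. Capitals mark the GC box GGGCGG on either strand.
Ncor1 (chr11:62457283-62457582, minus strand, GRCm38.p6): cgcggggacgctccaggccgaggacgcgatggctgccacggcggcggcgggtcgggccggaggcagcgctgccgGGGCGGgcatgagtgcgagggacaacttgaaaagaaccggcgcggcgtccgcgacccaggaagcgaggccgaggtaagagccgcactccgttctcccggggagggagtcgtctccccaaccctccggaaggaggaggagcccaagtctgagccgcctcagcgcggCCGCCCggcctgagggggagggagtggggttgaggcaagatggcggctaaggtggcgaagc
Med1 (chr11:98192857-98193156, minus strand, GRCm38.p6): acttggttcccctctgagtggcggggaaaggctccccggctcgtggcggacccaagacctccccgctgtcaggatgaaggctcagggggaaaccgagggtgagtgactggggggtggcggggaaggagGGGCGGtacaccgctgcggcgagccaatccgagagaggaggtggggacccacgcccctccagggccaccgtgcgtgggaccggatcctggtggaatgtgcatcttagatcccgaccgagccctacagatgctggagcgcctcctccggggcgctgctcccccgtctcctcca
Ep300 (chr15:81585964-81586263, plus strand, GRCm38.p6): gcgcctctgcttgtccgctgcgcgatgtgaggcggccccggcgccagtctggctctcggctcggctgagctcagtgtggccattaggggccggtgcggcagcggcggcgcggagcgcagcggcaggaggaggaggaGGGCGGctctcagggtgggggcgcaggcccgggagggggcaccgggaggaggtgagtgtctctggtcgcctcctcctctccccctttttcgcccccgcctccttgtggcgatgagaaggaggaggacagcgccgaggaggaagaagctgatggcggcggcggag
Ncoa1 (chr12:4477133-4477432, minus strand, GRCm38.p6): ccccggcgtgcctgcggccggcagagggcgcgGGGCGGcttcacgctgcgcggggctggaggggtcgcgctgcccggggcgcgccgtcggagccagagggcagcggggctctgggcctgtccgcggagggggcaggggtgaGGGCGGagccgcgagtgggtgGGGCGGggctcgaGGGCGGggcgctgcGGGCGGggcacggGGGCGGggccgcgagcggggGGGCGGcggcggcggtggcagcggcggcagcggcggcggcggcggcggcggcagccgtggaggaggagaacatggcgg
The Ncor1 promoter shared 269 bases with a Flag-Rxra peak of replicate 1 and 148 with one of replicate 2. The Med1 promoter shared 215 bases with a peak of replicate 1 and 0 with replicate 2, and the Ep300 promoter 244 and 0. The Ncoa1 promoter, with 7 GC boxes and a GC content of 84.7%, had 0 bases in either. The Crebbp promoter and a second one listed for Ncor1 (chr11:62438466-62438765), neither printed, also had 0 bases in either. The GC box stood in 5 member promoters and in 35.7% of all 32851 RefSeq promoters of this length. Both strands were also searched for AGGTCA, the hexamer that nuclear receptors read, found in 16.3% of promoters, and for its direct repeat with 1 base between, found in 0.0396%. The other motifs were TGANTCA of AP-1 (7.81%), TGACGTCA, the cAMP response element (1.79%), and CCGGAAGT of ETS factors (3.89%). None of these letters occurred in the 6 promoters listed for the 5 genes, of which Ncor1 has 2.

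Flag-Rxra peaks found in both replicates lay within 1 kb of an annotated end of 4 of the 7 genes, Ncoa3, Crebbp, Med1 and Ncor1. The background is 32.6% of all protein-coding genes. Such a shared peak is a replicate 1 peak that a replicate 2 peak overlaps by at least 1 bp. Each replicate taken alone gave 5 of 7 genes, with Ep300 added, beside 41.7% of all genes in replicate 1 and 42.1% in replicate 2. When both peaks had to overlap by 50% of their lengths, Ncoa3 alone was left, beside 20.2% of all genes. Within 50 kb, 6 of 7 genes had a shared peak, all but Ep300, beside 68.9% of all genes. The members' median window was about 232600 bp and that of all genes about 117200 bp, so these shares are not for windows of like length. The 7 windows held 24 peaks of replicate 1, of which 16 were shared (66.7%), and 38 of replicate 2, of which 17 met a replicate 1 peak (44.7%). In the whole lists these shares were 62.4% and 40.5%.

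**Figure D1:**
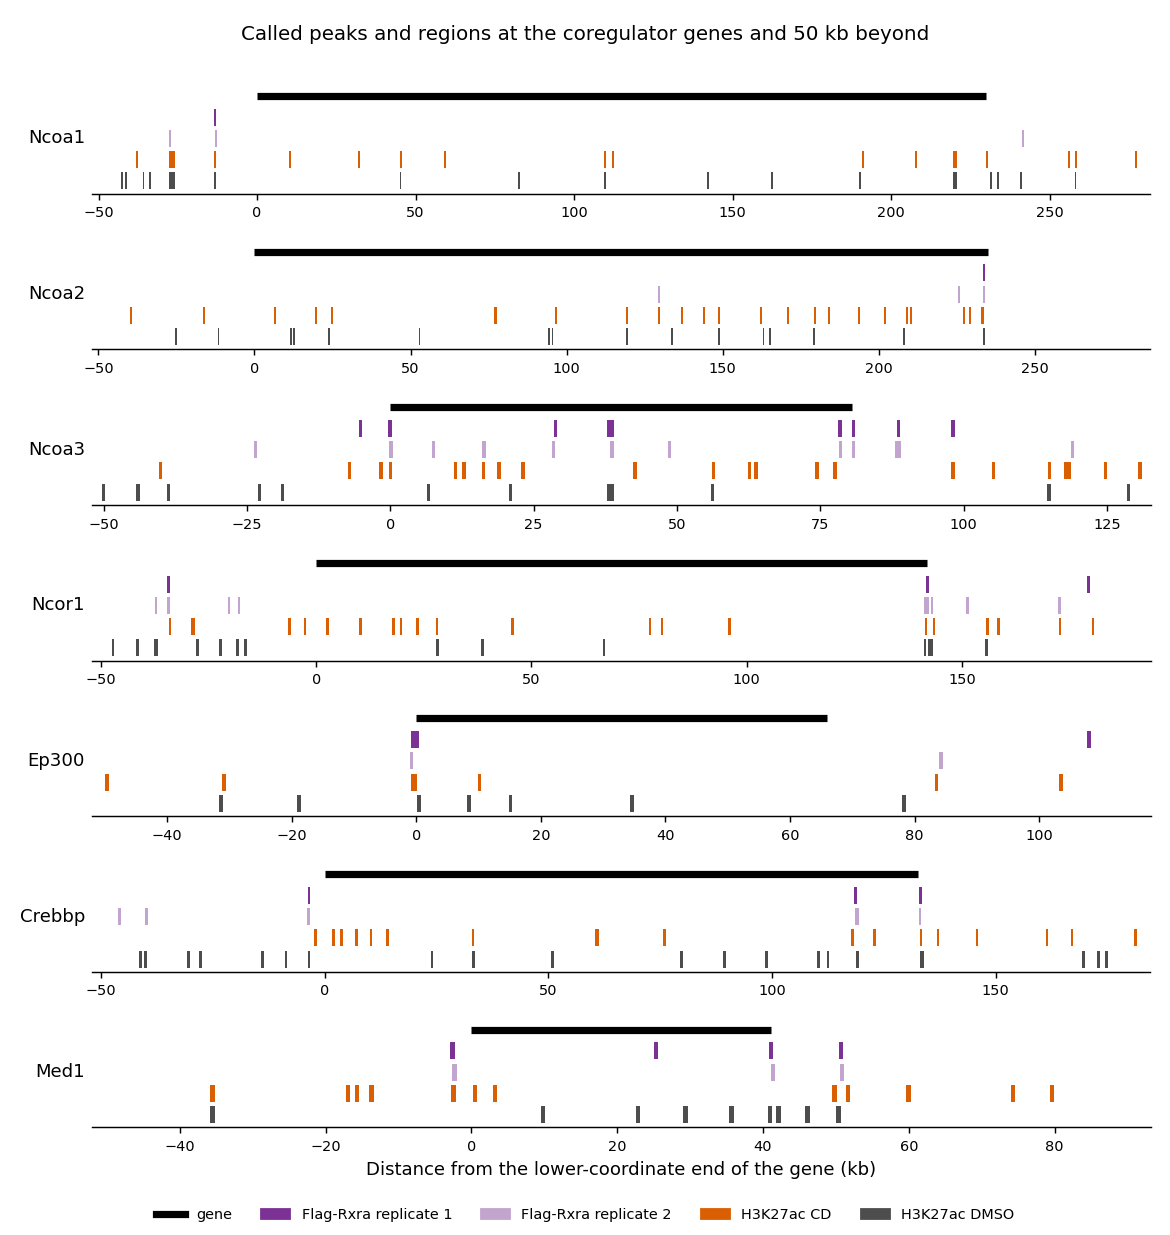
Called peaks and regions along each gene (black bar) and 50 kb beyond, as distance in kb from the end with the lower coordinate, in 4 rows for the 4 lists. Marks narrower than 0.6 kb are drawn 0.6 kb wide. Ncoa3 carries 9 and 12 Flag-Rxra peaks in replicates 1 and 2, and Ncoa1 1 and 3.

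The 16 shared peaks were spread over the loci. At members' ends lay 5 of them, 5 lay inside a member farther from its ends, 4 lay at an end of a neighbouring protein-coding gene and 2 lay elsewhere. Folds lay between 4.74 and 23.0 in replicate 1, and between 7.81 and 38.9 in replicate 2. Median folds were 10.4 in replicate 1 and 15.1 in replicate 2, near the 10.3 and 14.4 of all 17623 shared peaks. Replicate 2 had the higher fold at 16 of 16 peaks, as it did at 83.2% of all shared peaks. The median gene of the 7 had 0.8273 shared peaks per 100 kb of its window, against 0.9599 for all protein-coding genes. Their number per length and their folds were thus near those of the rest of the genome.

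**Figure D2:**
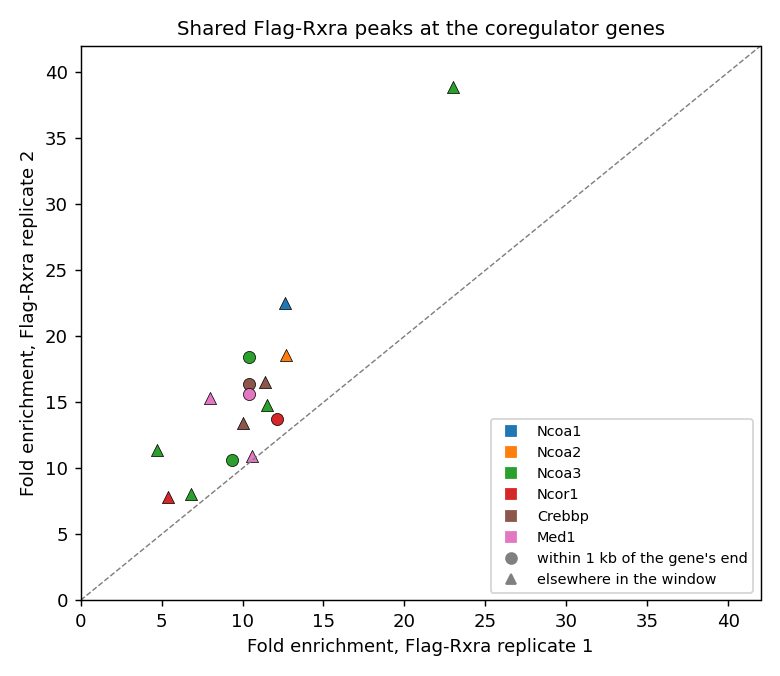
Fold enrichment of the 16 shared peaks in replicate 1 (x axis) and replicate 2 (y axis), coloured by gene, with circles for peaks within 1 kb of the gene's end and triangles for the others. The dashed line marks equal folds. Every point lies above it, and the peak inside Ncoa3 at 23.0 and 38.9 stands apart.

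Among the p160 coactivators, Ncoa3 (chr2:165992637-166073242) carried most of the Flag-Rxra peaks. Its window held 9 peaks in replicate 1 and 12 in replicate 2, of which 6 were shared. As many or more shared peaks were found at 8.26% of all genes. Per length, Ncoa3 had 3.32 shared peaks per 100 kb, a density reached by 15.3% of genes.

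The strongest peak at any of the 7 genes lay inside Ncoa3 (chr2:166031116-166031551), 38.6 kb from its lower end. Its fold was 23.0 in replicate 1 and 38.9 in replicate 2, with −log10 q of 393 and 633. It ranked 255 by fold in replicate 1 and 140 in replicate 2 among the 17623 shared peaks. No CD region overlapped it, while a DMSO region with a −log10 q of 1.84 did. A further peak inside the gene (chr2:166021156-166021442) had folds of 11.5 and 14.8 and no H3K27ac region in either condition. Both Ncoa3 ends had a shared peak. At the lower end (chr2:165992288-165992882) the folds were 10.4 and 18.4, the summits stood 110 and 113 bp outside the gene, and the predicted gene LOC115489489 overlaps that end. At the upper end (chr2:166073126-166073475) the folds were 9.34 and 10.6, and an end of Sulf2, a heparan sulfate sulfatase gene, lies within 1 kb of the same peak. The lower end also had a CD region of 162 bp with a −log10 q of 1.48, and no DMSO region. The other 2 shared peaks were weaker in replicate 1, with folds of 4.74 and 11.4 inside the gene, 2357 bp from its upper end, and 6.83 and 8.04 inside Sulf2. Replicate 2 alone added peaks inside Ncoa3 with folds of 12.0, 13.5 and 14.7.

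Ncoa2 (chr1:13139105-13374227) had 1 peak in replicate 1 and 3 in replicate 2. The shared one (chr1:13372439-13373116) had folds of 12.7 and 18.6 and −log10 q of 74.6 and 122.0. Its summit stood 1638 bp inside the upper end in replicate 1 and 1578 bp in replicate 2. The peak itself stopped short of the 1 kb window around that end. Windows of 2.5 kb met it and raised the count of genes with an end peak to 5 of 7, beside 37.0% of all genes. H3K27ac met this peak in both conditions, with a CD region of 821 bp and a DMSO region of 393 bp, at −log10 q of 1.77 and 1.32.

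Ncoa1 (chr12:4247362-4477206) had no Flag-Rxra peak within 1 kb of either end in either replicate. Its window held 1 peak in replicate 1 and 3 in replicate 2. The shared one (chr12:4233760-4234456), with folds of 12.6 and 22.5, lay 13.2 kb outside the gene, where the annotated ends of Cenpo, a centromere protein gene, and Ptrhd1 overlap. Of the p160 genes, then, Ncoa3 had a shared peak at its ends, Ncoa2 had one just inside, and Ncoa1 had none within 10 kb.

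The acetyltransferase paralogs differed in what was called at them. Crebbp (chr16:4081334-4213957) had 3 peaks in replicate 1, all shared, and 6 in replicate 2. The peak at its 5′ side (chr16:4214164-4214618) had folds of 10.4 and 16.4, with summits 948 and 809 bp upstream of the RefSeq start. Inside the gene, 14.1 kb from that end, a second peak (chr16:4199730-4200214) had folds of 11.4 and 16.5. The third (chr16:4077493-4078007), with folds of 10.0 and 13.4, lay at an end of Trap1, the neighbouring gene for a mitochondrial chaperone. Both conditions had an H3K27ac region at the 5′ side of Crebbp that began at base 4214356, and it was 457 bp wide in CD and 1064 bp wide in DMSO.

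Ep300 (chr15:81586209-81652077) had no shared peak in its window, with 3 peaks in replicate 1 and 2 in replicate 2. Near its start, replicate 1 had 2 peaks (chr15:81585424-81585647 and chr15:81586020-81586427) with folds of 6.54 and 7.65. Replicate 2 had 1 (chr15:81585171-81585354) with a fold of 7.67, and it did not reach either. The folds of these 3 peaks were under the medians of their lists, 9.03 in replicate 1 and 10.8 in replicate 2. The highest fold in the window, 18.2, was that of a replicate 2 peak inside the neighbouring gene L3mbtl2, which replicate 1 lacked. H3K27ac near the start also differed in place, with a CD region of 885 bp over the whole printed promoter and a DMSO region of 343 bp inside the gene. With no replicate test of the difference, the contrast between the paralogs is a description of the lists.

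Med1 (chr11:98152154-98193313) had 4 peaks in replicate 1 and 3 in replicate 2, of which 3 were shared. The peak at its 5′ end (chr11:98192942-98193577) had folds of 10.4 and 15.6, with summits 177 and 339 bp upstream of the RefSeq start. Both summits still lay inside the annotated gene, 230 and 68 bp from its upper end. The replicate 1 peak reached over the promoter printed above, and the replicate 2 peak lay wholly upstream of that window. A DMSO region of 419 bp with a −log10 q of 1.67 overlapped this peak, and no CD region did. The CD list had a region of 167 bp at the opposite end of the gene, with a −log10 q of 1.52. A second shared peak (chr11:98202566-98203201), with folds of 10.6 and 10.9, lay at an end of Cdk12, which encodes a kinase of RNA polymerase II. The other (chr11:98149292-98149600) lay inside Fbxl20 with folds of 8.02 and 15.3, and the replicates overlapped there by 79 bp.

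Ncor1 (chr11:62315663-62457414), the corepressor, had 3 peaks in replicate 1 and 9 in replicate 2, of which 2 of the replicate 1 peaks were shared. The peak at its 5′ end (chr11:62457314-62457634) had folds of 12.1 and 13.7 and −log10 q of 44.1 and 38.8. Both replicates placed its summit at the same base, 32 bp upstream of the RefSeq start and inside the promoter printed above. That base still lay inside the annotated gene, 50 bp from its upper end. Replicate 2 had 2 further peaks within 1 kb of this end, with folds of 5.52 and 10.8, that replicate 1 lacked. An end of Pigl, a gene of glycosylphosphatidylinositol anchor synthesis, lies within 1 kb of this peak. A CD region of 394 bp overlapped the peak, at a −log10 q of 1.39. In DMSO, regions of 333 and 1192 bp stood on its 2 sides without meeting it. The second shared peak (chr11:62281071-62281477), with folds of 5.41 and 7.81, lay 34.2 kb outside Ncor1 at the adjoining ends of Zswim7 and Ttc19.

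**Figure D3:**
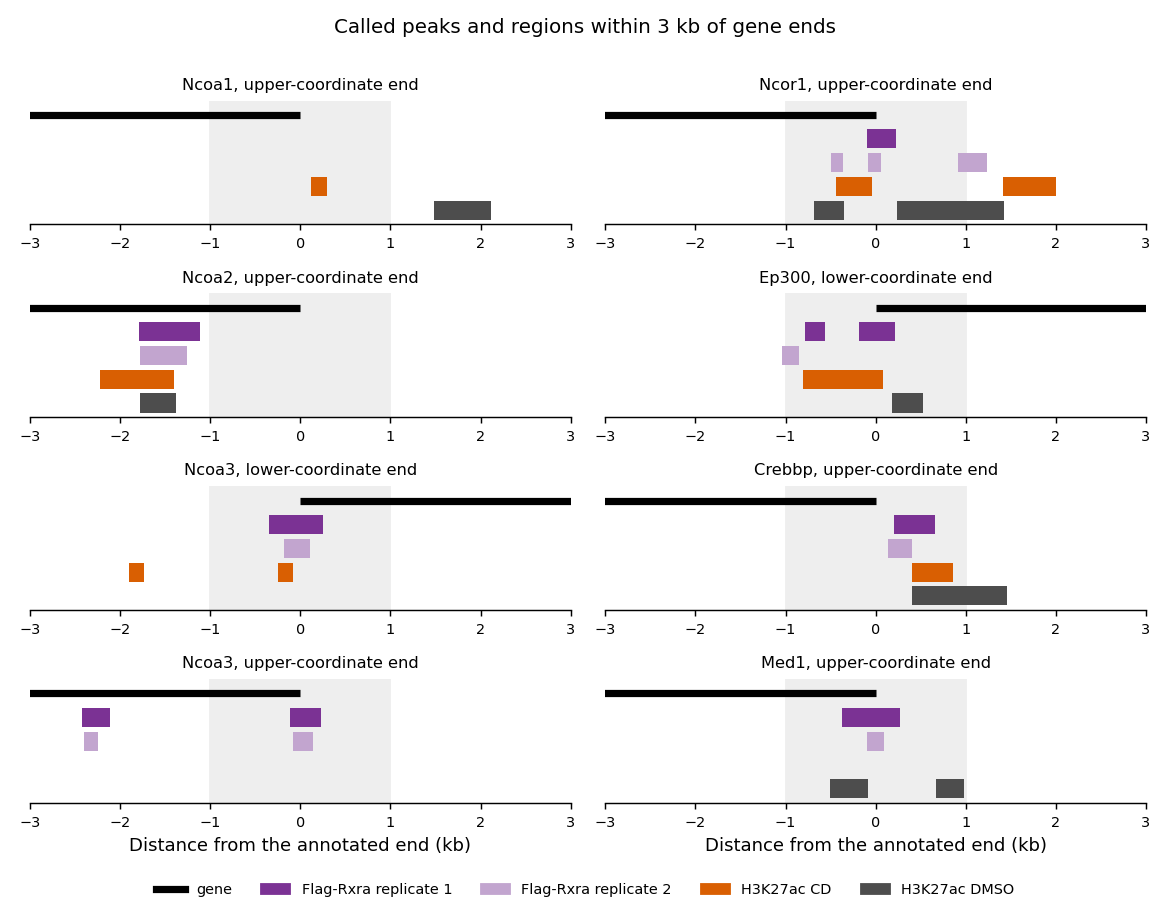
Called peaks and regions within 3 kb of 8 gene ends, as distance in kb from the annotated end, with the gene as a black bar, the 4 lists in rows and the 1 kb limit shaded. Flag-Rxra peaks of the 2 replicates overlap at the ends of Ncoa3, Ncor1, Crebbp and Med1, lie apart at Ep300, lie just outside the limit at Ncoa2 and are absent at Ncoa1.

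At the members' ends H3K27ac was called for 6 of 7 genes in CD, all but Ncoa2, beside 38.3% of all genes. In DMSO it was called for 4 of 7, Ncor1, Ep300, Crebbp and Med1, beside 35.8%. The same 4 genes had a region in both conditions, where 21.2% of all genes did. At Med1 the conditions marked opposite ends. These regions were weak. Their −log10 q ran from 1.39 to 1.81 in CD and from 1.33 to 2.1 in DMSO, where the lists stop at 1, and with regions of 2 or more the count in both conditions was 0 of 7, beside 1.43% of all genes.

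Over the whole windows, 5 of 7 genes had more bases covered by H3K27ac regions in CD than in DMSO, beside 59.4% of all protein-coding genes. These were Ncoa2, Ncoa3, Ep300, Med1 and Ncor1. A gene was called when the conditions differed by at least 1.5-fold and 500 bases. Ncoa3 was the 1 gene of 7 called higher in CD, beside 27.9% of all genes, and 0 of 7 were called lower, beside 9.65%. With 7 genes, counts this small do not set the members apart from the background, and they changed with the reach of the window, as given below.

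At Ncoa3, CD regions covered 7573 bases and DMSO regions 4180, a ratio of 1.81. In its flanks CD covered 3898 and DMSO 2219, and inside the gene CD covered 3353 and DMSO 1961. Every region called beyond the upper end of Ncoa3 had its midpoint inside Sulf2. Ncoa2 followed with 8831 in CD and 5950 in DMSO (1.48). Most of this lay inside the gene, at 7430 bases in CD and 4931 in DMSO. Ncor1 had 6508 in CD and 4935 in DMSO (1.32). The largest part of the difference at Ncor1 lay inside the gene, where CD covered 2276 bases and DMSO 751. Among these CD bases is a region of 337 bp that also lay inside the overlapping gene Ttc19. In its flanks CD covered 3080 and DMSO 2659, and within 2.5 kb of its ends CD covered 1152 and DMSO 1525.

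Med1 had 3788 bases in CD and 3051 in DMSO (1.24), and Ep300 had 2451 in CD and 1992 in DMSO (1.23). The 2 remaining genes ran the other way. Ncoa1 had 8058 in CD and 8859 in DMSO (0.91), and Crebbp had 5776 in CD and 6539 in DMSO (0.883). Summed over the 7 windows, CD covered 42985 bases with 115 regions and DMSO 35506 bases with 93 regions. The members' median difference, CD minus DMSO, was 737 bases, beside 282 for all protein-coding genes. The members' median window was about 232600 bp long and that of all genes about 117200 bp. Per 100 kb, the median member had 2635 bases in CD and 2161 in DMSO, and the median of all genes 2359 and 1919.

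By part of the locus, CD covered more bases than DMSO inside Ncoa1, Ncoa2, Ncoa3, Ncor1 and Crebbp, and fewer inside Ep300 and Med1. The share of all genes was not computed for this part, so these values cannot set the members apart from other genes. The 59.4% of all genes with more in CD is for whole windows, a different measure. Crebbp, which encodes an acetyltransferase of this mark, had 3514 bases inside the gene in CD and 2260 in DMSO, but 969 in CD and 3215 in DMSO in its flanks. Med1 showed the opposite order, with 383 bases inside the gene in CD and 1440 in DMSO, against 2850 in CD and 878 in DMSO in its flanks. The flanks of Med1 hold Fbxl20 and Cdk12, those of Crebbp hold Trap1 and those of Ncoa3 hold Sulf2. Those of Ncor1 hold Ttc19, Zswim7 and Pigl, and Ttc19 also overlaps the gene. Covered bases in flanks or overlaps need not belong to the member.

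At the ends, within 2.5 kb, the sums were small. Ep300 had 885 bases in CD and 343 in DMSO, Ncoa2 821 in CD and 393 in DMSO, and Crebbp 1293 in CD and 1064 in DMSO. Ncoa3 had 322 in CD and 0 in DMSO. Ncor1, Med1 and Ncoa1 had fewer in CD, and Ncoa1 had 179 in CD and 638 in DMSO. Regions were 139 to 2151 bp wide in CD and 146 to 2063 bp wide in DMSO, so 1 or a few regions decide each of these sums.

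**Figure D4:**
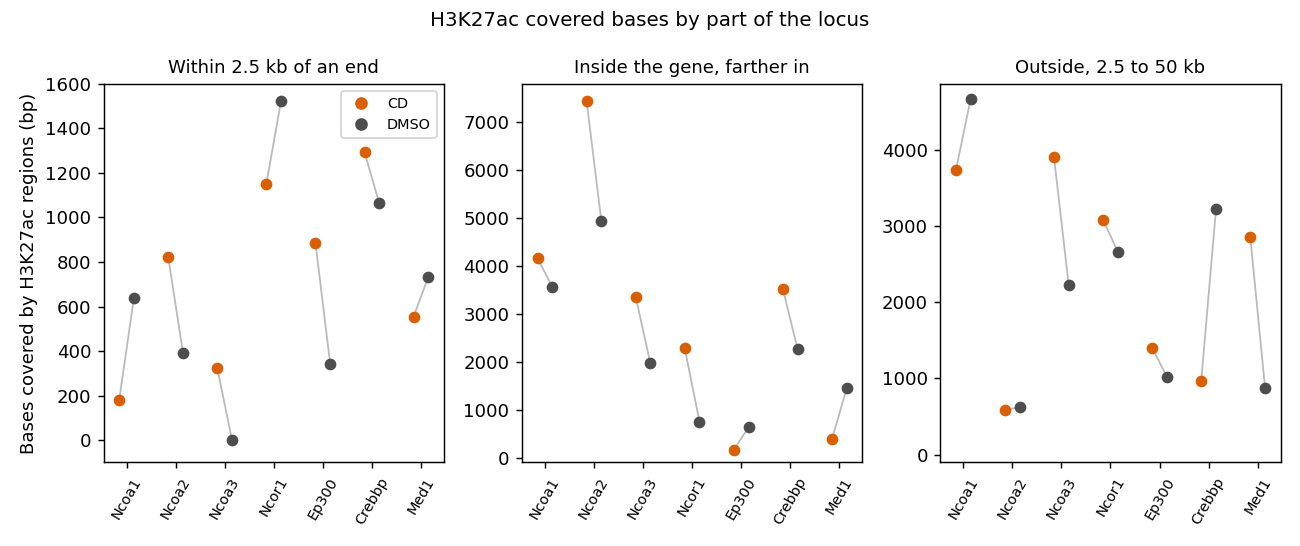
Bases covered by H3K27ac regions in CD (orange) and DMSO (grey) for each gene, within 2.5 kb of its ends, farther inside it, and outside it out to 50 kb. Inside the genes CD is higher at Ncoa1, Ncoa2, Ncoa3, Ncor1 and Crebbp and lower at Ep300 and Med1. There is 1 list per condition and no error.

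**Figure D5:**
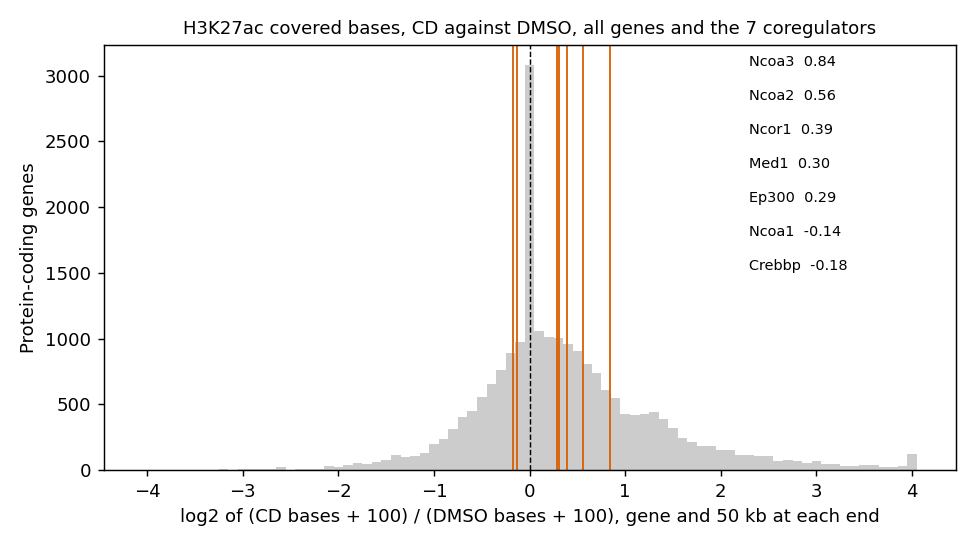
The log2 ratio of covered bases in CD to DMSO, with 100 bases added to each, for all protein-coding genes (grey bars, values beyond 4 placed at 4) and the 7 genes (orange lines). The 7 lie between -0.18 at Crebbp and 0.84 at Ncoa3, within the bulk of the genes.

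The sign of these differences changed with the threshold and with the reach of the window. Once regions under a −log10 q of 2 were left out, Ncoa3 turned round, with 140 bases in CD and 1230 in DMSO, and Ep300 had 0 in both. In that setting 13.8% of all genes were called higher in CD and 19.4% lower. With 10 kb in place of 50 kb beyond the ends, 4 of 7 genes were called: Ncoa2, Ncoa3 and Ncor1 higher in CD, and Med1 lower, with 1682 bases in CD and 2899 in DMSO. Over all genes that reach gave 25.6% called higher in CD and 14.2% lower.

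Few regions of the windows were called in both conditions: 20 of the 115 CD regions (17.4%) and 20 of the 93 DMSO regions (21.5%), where the whole lists gave 13.9% and 19.2%. Ncoa1 held 6 of the 20. The widest (chr12:4219441-4221591) lay inside Cenpo and measured 2151 bp in CD and 2063 bp in DMSO, with −log10 q of 3.98 and 4.22. A replicate 2 Flag-Rxra peak lay in it. Inside Ncoa1, 9.11 kb from its 5′ end, a further pair measured 1296 bp in CD and 1445 bp in DMSO, with no Flag-Rxra peak. Of all regions in the 7 windows, 114 of 115 in CD and 92 of 93 in DMSO had a −log10 q under 5. The exception in both was a narrow region inside Fbxl20 near Med1 (chr11:98116368-98116543), which had no Flag-Rxra peak and whose −log10 q was 32.9 in CD and 15.3 in DMSO.

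Of the 16 shared Flag-Rxra peaks, 7 overlapped a CD region and 8 a DMSO region, beside 26.9% and 34.4% of all shared peaks. Regions of both conditions met 3 of them, or 18.8%, near the 15.4% of all shared peaks. These 3 lay at Ncoa2, at the 5′ side of Crebbp and where Cenpo and Ptrhd1 overlap. No H3K27ac region met 4 of the 16, or 25.0%, beside 54.1% of all shared peaks. The members were not chosen at random and neighbouring regions are not independent, so the shares are descriptions.

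Other coregulators were read in 3 lists. Of 23 other coactivators, 14 had a shared Flag-Rxra peak at an end (60.9%), led by Ncoa5, a receptor coactivator, with folds of 14.9 and 24.5, and Smarca4, an ATPase of the SWI/SNF remodeller, with 16.1 and 21.8. Of 18 corepressor complex genes, 9 had one, led by the deacetylase gene Hdac1, with 18.9 and 31.5, and Sap30, a Sin3 complex subunit, with 18.1 and 26.5. Of 31 Mediator genes, 19 had one (61.3%), led by the kinase module gene Cdk19, with 14.9 and 33.9, and Med23, with 16.1 and 24.4. Of the genes described here 4 of 7 had one, and of all genes 32.6%. The 3 lists were chosen with earlier results of these data known, so their shares do not place the 7 genes. With 7 genes any comparison is rough. The 50% overlap rule left 1 of 7, beside 20.2% of all genes, and was not applied to the 3 lists. For H3K27ac, 3 other coactivators were called higher in CD and 3 lower, 6 corepressor genes higher and 3 lower, and 10 Mediator genes higher and 6 lower, beside 27.9% of all genes higher and 9.65% lower. Median differences, CD minus DMSO, were 115, 971.5 and 240 bases in the 3 lists, beside 282 for all genes.

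The genes whose pattern was most like that of the 7 were Tmem213, Nr1h4 and Tmem165. Likeness was the distance from the members' median profile, as log2 of the bases covered per 100 kb plus 100, over the 4 lists. The distances were 0.067, 0.129 and 0.132, whereas the members themselves stood between 0.378, at Crebbp, and 2.031, at Ncoa3.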

How the data were processed

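The deposited files were 4 peak lists. Per the labels, both H3K27ac replicates of a condition name 1 list, and each Flag-Rxra replicate has its own. Build mm10 and the tools MACS2 2.1.2, Bowtie2 2.2.5, deepTools 3.4.3 and fastp 0.20.1 stand in the submitters' processing notes. How replicates were combined and whether a control entered peak calling are not given in the sources used here. The deposited fold enrichment is a ratio over the peak caller's background, and the deposited −log10 q and summits are the authors' values. H3K27ac lists are of the broad type and stop at a −log10 q of 1, Flag-Rxra lists of the narrow type at 5, so values do not compare across them.

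Computation used pandas 2.3.3, numpy 2.4.6 and matplotlib 3.10.9 under Python 3.11.15, on the autosomes, X and Y. Overlap meant at least 1 bp, and coordinates of shared peaks are those of replicate 1. RefSeq GRCm38.p6 gave gene ends without strand or exons, and promoters gave strand for 5 of the 7 genes. Overlap and coverage functions were tested on simulated data. The depth is unknown, and the lists allow no test between conditions. Members and lists were chosen with earlier results of these data known. A further gene of the family is not reported here. Every member is named. Shared peaks are described when at a member's end, otherwise the 2 with the best ranks of fold per gene. The weaker shared peaks of Ncoa3, the peaks of single replicates and the single H3K27ac regions described were chosen after their values were seen. Neighbours are named when such a peak lies within 1 kb of their end, or when a described peak or region lies inside them, as for L3mbtl2 and Fbxl20. In the other lists the 2 genes with the best-ranked end peak are named. Alternatives covered the overlap rule, peak thresholds, single replicates, window widths, matched covered length, fold weighting and the strongest regions.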

Additional observations from a re-analysis of the deposited data

How the results depend on the processing

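The count of genes with a shared Flag-Rxra peak at an end, 4 of 7, fell to 1 when peaks had to overlap by 50% of both lengths, beside 20.2% of all genes, and ran from 3 to 5 under the other alternatives. The 3, Crebbp, Med1 and Ncor1, were for the 5′ end alone. That end could be placed for 5 genes, so this count is 3 of 5 and not of 7. No share of all genes was computed for the 5′ end alone, so it has no background. Without replicate 1 or replicate 2 the count was 5 in each case. The number of shared peaks in the windows, 16, fell to 7 with the 50% overlap. Without replicate 2 the remaining list had 24 peaks there, and without replicate 1 it had 38, since no second list was then required. It ran from 13 to 16 under the other alternatives.

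The count of genes with more covered bases in CD stayed at 4 or 5 of 7 under the alternatives tried, but the genes changed: without regions under a −log10 q of 2 they were Ncoa1, Ncoa2, Crebbp and Med1. In that setting the 1 called gene, Ncoa3, turned to lower in CD, with a difference of -1090 bases, and of all genes 34.8% had more in CD and 39.5% fewer, with 13.8% called higher and 19.4% lower. With equal covered length of the lists, 46.3% of all genes had more in CD and 42.6% fewer, 19.5% were called higher and 16.5% lower, and Ncoa3 stayed called at a ratio of 1.51, close to the limit of 1.5. With 10 kb beyond the ends, 4 genes were called in place of 1, 3 higher and 1 lower in CD, beside 25.6% and 14.2% of all genes. Genes with an H3K27ac region at an end in both conditions numbered 0 with regions of 2 or more, beside 1.43% of all genes, and 6 with windows of 2.5 kb, beside 37.6%. The causes were not tested. No paired analysis was possible because each H3K27ac condition has 1 list for both replicates. For the same reason no H3K27ac replicate could be left out. Depth is unknown, so what the lists could miss cannot be stated.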
